A study of Mus musculus with 63 samples.

Results

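The data compared here are RNA sequencing libraries of sorted mouse pancreatic β cells at postnatal day 10 (P10, n = 5) and shortly before birth (E18.5, n = 4). The 9 libraries are those whose titles end in P10 or E18.5, out of 63 in the series, which asks how β cells mature and how they lose maturity in diabetes. Both groups were wild type ICR mice by their disease state and strain labels, and all 9 carried the genotype Cherry/+; Ins2-Cre/+. In such animals Cre made under the insulin 2 promoter switches on the red protein mCherry, so the sort takes cells in which that promoter has been active. Islets were purified on a density gradient, trypsinized and sorted for mCherry, and libraries were made from ultra-low amounts of RNA. RNA came from a Qiagen RNeasy Plus Mini Kit in P10 libraries 1 and 2 and E18.5 library 1, and from TRIzol-phenol chloroform in the other 3 of each group. The labels give no sex for either group and do not say whether animals were pooled. The titles of P10 libraries 2 and 3 share a number, and nothing says that the libraries of a group came from separate animals. The p-values therefore measure the spread between these libraries, which may be partly technical. Library totals ran from 33055870 to 43542706 expected counts, and 14279 to 15485 genes had a count above 0.

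β cells store insulin in dense-core granules and release it when glucose metabolism raises the ATP level, closes potassium channels and lets calcium in. Fetal β cells already make insulin but release it poorly in response to glucose, and they divide more than adult cells do. Maturation after birth is known for the arrival of urocortin 3 (*Ucn3*) and synaptotagmin 4 (*Syt4*) and of the factor *Mafa* in rodents, and for the silencing of genes of progenitors, of fetal growth and of lactate metabolism.

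The 2 groups were paired because both are low in stromal RNA, so the stromal shares describe that choice. The stromal list is among the 14 marker lists of the permutation test below, but its outcome is not read as a result. Stromal marker genes held 0.00144 to 0.033% of counts at P10 and 0.0103 to 0.0382% at E18.5. At P1 they held 0.071 to 2.842%, with a mean of 1.49%, and at P7 0.0364 to 2.817%, with a mean of 1.495% (n = 3 each). The lowest P7 library thus lay within the E18.5 range. Acinar markers held 0.0569 to 0.674% at P10 and 0.0656 to 0.325% at E18.5. Among stromal genes 14 of 15 had a negative log2 fold change (P10 over E18.5), with a median of -1.49, and 4 were called lower. The acinar share did not pass an exact two-sided permutation test (adjusted p = 0.354 over 14 marker lists). None of the 22 acinar genes was called by edgeR, though 4 had an unadjusted p below 0.05 and 4 were called by DESeq2. Their median log2 fold change was 1.09, with 21 of 22 positive. In bulk libraries, fewer cells of a type and less RNA per cell cannot be told apart.

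Some libraries stood apart. E18.5 library 1 carried 3448 CPM (counts scaled to library size) of 14 intestinal epithelial genes, chosen after their values were seen, among them 776 CPM of *Apoa1* and 437 CPM of *Fabp2*. The 5 P10 libraries held 47.2 to 70.4 CPM of these genes, the E18.5 libraries 2 and 3 held 78.1 and 69.4 CPM, and library 4 held 177 CPM. *Vil1* alone held 34.2 to 54.8 CPM in P10 libraries and 27.4 and 25.1 CPM in E18.5 libraries 2 and 3. E18.5 library 4 held 38.6 CPM of *Apoa4* and 12.3 CPM of *Fabp2*. Libraries 2 and 3 held at most 2.84 and 0.974 CPM of them, and P10 libraries at most 10.0 and 1.96 CPM. Hepatocyte markers held 0.0788% of counts in E18.5 library 1 and at most 0.0109% in any other library of the 9. The hepatocyte list also includes *Apoa1*, at 776 CPM in E18.5 library 1, so this share is not separate from the intestinal value. P10 library 2 held the most alpha cell marker RNA, 0.698% of counts against 0.0589 to 0.378% in the other P10 libraries, and the most acinar marker RNA. E18.5 library 4 held 0.0621% of erythroid marker counts, against 0.000214 to 0.00307% in the other 3. The first principal component, 55.2% of the variance, still placed all P10 libraries on one side and all E18.5 libraries on the other, and the second, 16.4%, set P10 library 2 apart from the rest. Values without these libraries are given below for the genes and lists in which they stand out.

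**Figure D1:**
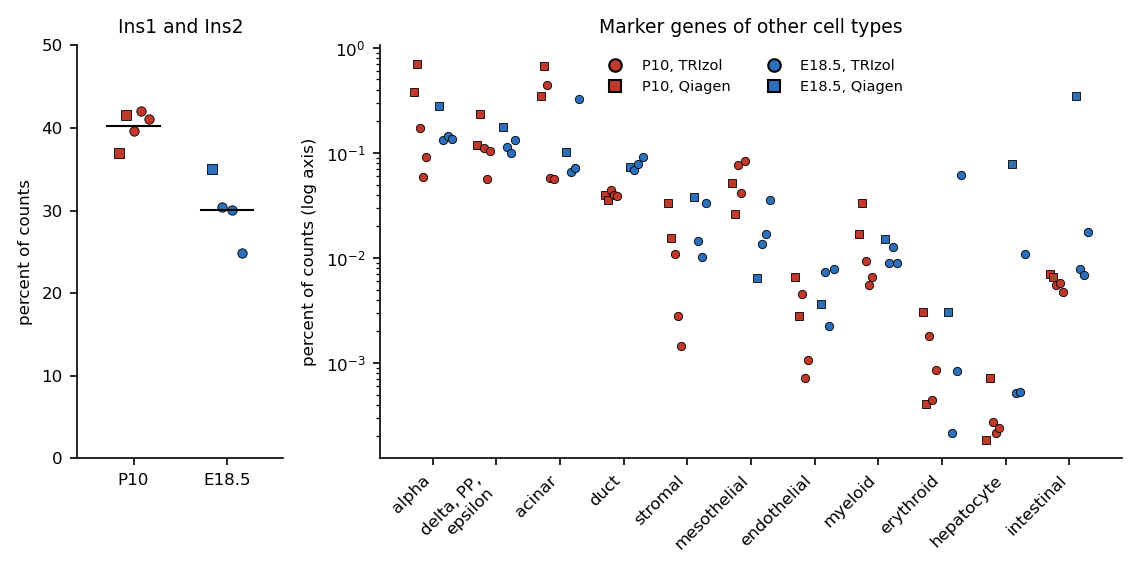
Left, the share of all expected counts held by Ins1 and Ins2 in each library, with the group mean as a line. Right, the share held by marker genes of other cell types on a log axis, where the intestinal list of E18.5 library 1 stands far above the other 8 libraries and the stromal shares of the groups overlap.

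Gene by gene, 3008 of 13645 genes tested differed between P10 and E18.5 at an adjusted p below 0.05 in edgeR's quasi-likelihood test with RNA extraction as a covariate, a background of 22% of genes. At P10, 1332 genes were higher (9.76%) and 1676 lower (12.3%). Of the genes called, 1153 differed at least 2-fold (8.45% of those tested). The P10 and E18.5 libraries did not overlap for 2359 genes (17.3%), with P10 above E18.5 for 1070 (7.84%) and below it for 1289 (9.45%). An unadjusted p below 0.05 was found for 35.8% of genes. The median log2 fold change of all genes tested was -0.009. The count fell to 2187 without E18.5 library 1, stood at 2977 without P10 library 2 and at 2676 of 13390 (20%) with the TRIzol libraries alone, 3 against 3. With the spread between libraries shared over all 63 libraries of the series, 1050 of 16092 genes were called (6.52%), and 900 of these were among the 3008. In what follows CPM are scaled by library size and composition, fold changes are log2 P10 over E18.5 with their standard error (SE), and adjusted p-values come from that edgeR test unless stated.

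Insulin made up more of the RNA at P10. The 2 insulin genes together held 37.0, 41.6, 39.7, 42.1 and 41.1% of all counts in the P10 libraries, against 35.1, 30.5, 30.1 and 24.9% in the E18.5 libraries. All P10 libraries stood above all E18.5 libraries, with means of 40.3 ± 2.03% and 30.1 ± 4.15% (SD, n = 5 and 4). The difference of 10.2 percentage points had p = 0.00794 in an exact two-sided permutation test, the smallest p that 5 against 4 libraries allow. *Ins1* made up 12.1% of counts at P10 and 8.59% at E18.5, and *Ins2* 28.2% and 21.5%. The groups overlapped for *Ins2*, with 25.32% in P10 library 1 and 25.85% in E18.5 library 1 (exact permutation p = 0.0159), and not for *Ins1*. The insulin genes are close relatives, so the split of reads between them is uncertain. *Iapp*, the amyloid peptide that is co-secreted with insulin, rose by 0.45 ± 0.12 (adjusted p = 0.0199), with overlapping groups. *Iapp* had 21200 CPM in P10 library 1, below the 23200 CPM of E18.5 library 1.

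Of 19 genes of insulin and granule cargo, 6 rose and 2 fell, with a median of 0.21, or 2 and 0 with all 63 libraries. *Resp18*, a granule protein of endocrine cells, had 465, 845, 573.1, 547.8 and 607 CPM in P10 libraries, against 171, 99.1, 94.7 and 98.3 CPM in E18.5 libraries. The groups did not overlap, and E18.5 library 1 was the highest of its group. Its log2 fold change was 2.37 ± 0.18 (adjusted p = 3.34e-06) and 2.56 without E18.5 library 1. *Pcsk1n*, which encodes proSAAS, an inhibitor of the proinsulin-cutting enzyme PC1/3, rose by 1.43 ± 0.10, with 1050 ± 87.0 CPM at P10 and 387 ± 39.4 CPM at E18.5. *Scg2*, a granin, rose by 0.71 ± 0.08 to 3841 CPM at P10, against 2406 CPM at E18.5. The neurosecretory peptide precursor *Vgf* fell by 1.06 (adjusted p = 0.00975) and *Scg3*, which anchors granins to the granule membrane, by 0.37. The convertases *Pcsk1* (-0.28) and *Pcsk2* (0.21) and the zinc carrier *Slc30a8* (-0.21) did not pass the test.

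The machinery of exocytosis was mixed, with 7 of 27 genes higher and 4 lower and a median of 0.26. The counts were 4 and 2 without E18.5 library 1 (median 0.09), 4 and 3 without E18.5 library 2, and 3 and 3 without E18.5 library 3. *Syt4*, a synaptotagmin that tunes the calcium dependence of insulin release, had 66.4, 38.8, 36.9, 39.6 and 38.5 CPM in P10 libraries, against 8.76, 14.7, 9.58 and 9.46 CPM in E18.5 libraries. P10 library 1 stood above the other 4, and no P10 library came near the E18.5 range (log2 fold change 2.01 ± 0.23, adjusted p = 9.87e-05). *Snap25*, a SNARE protein of the plasma membrane, rose by 1.02 ± 0.11 to 132 ± 18.7 CPM, against 66.8 ± 9.96 CPM at E18.5. Its partner *Stx1a*, syntaxin 1A, fell by 0.99 ± 0.15 to 15.2 CPM at P10, against 30.1 CPM at E18.5. The 2 plasma membrane SNAREs thus moved in opposite directions. With the spread of all 63 libraries, 2 genes of this list were called higher and 1 lower.

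Peptide hormones moved in both directions, with 12 of 15 tested genes called, 4 higher and 8 lower, and a median of -2.02. The counts were 3 higher and 4 lower without E18.5 library 1, and with all 63 libraries 1 higher and 4 lower. *Ucn3*, a peptide that β cells release and that prompts somatostatin from neighbouring delta cells, had 571, 855, 708, 607 and 567 CPM in P10 libraries, against 101, 94.6, 107 and 105 CPM in E18.5 libraries. The 4 E18.5 libraries lay close together and every P10 library was above 5 times their level, with a log2 fold change of 2.68 ± 0.14 (adjusted p = 2.51e-07). *Crhr2*, which encodes the receptor that urocortin 3 prefers, went the other way. It had 0.144, 0.319, 0.456, 0 and 0.252 CPM in P10 libraries, against 13.98, 13.1, 16.4 and 20.3 CPM in E18.5 libraries. The transcript was thus near 0 in every P10 library and plainly present in every E18.5 library (log2 fold change -6.02 ± 0.52, adjusted p = 1.38e-05). The related receptor *Crhr1*, looked up after the values of *Crhr2* were seen, had 1.21 ± 0.60 CPM at P10 and 3.35 ± 0.61 CPM at E18.5 (-1.55 ± 0.46, adjusted p = 0.0319).

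The 3 members of the neuropeptide Y family, which share a fold and a set of receptors, did not move together. *Ppy*, pancreatic polypeptide, had 639, 834, 614, 445 and 701 CPM in P10 libraries, against 125, 95.1, 117 and 116 CPM in E18.5 libraries (2.46 ± 0.15, adjusted p = 6.76e-07). *Pyy*, peptide YY, had 1605, 1779, 1971, 1717 and 2704 CPM in P10 libraries, against 983, 665, 503 and 749 CPM in E18.5 libraries (1.43 ± 0.21, adjusted p = 0.000948). Both were higher at P10 in all libraries. *Npy* itself, which marks immature β cells, had 95.2, 183, 94.8, 143 and 93.1 CPM in P10 libraries, against a mean of 837 ± 220.2 CPM in E18.5 libraries, where library 2 was the highest at 1039 CPM (-2.83 ± 0.24, adjusted p = 3.11e-05). No library of either group lay in the other group's range for any of the 3. With the spread of all 63 libraries *Npy* was still called (adjusted p = 0.011), whereas *Ppy* (adjusted p = 0.0949) and *Pyy* (adjusted p = 0.207) were not. PP cells also make *Ppy* and *Pyy*. The summed delta, PP and epsilon markers held 0.057 to 0.236% of counts at P10 and 0.0992 to 0.176% at E18.5. *Ppy* itself is in that sum, which therefore cannot gauge PP cells apart from *Ppy*. The part of other islet cells in these peptides was not tested.

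Other peptides fell. Ghrelin (*Ghrl*), the hormone of the epsilon cells of the fetal islet, had 0.284 to 4.60 CPM at P10, with a median of 0.97 CPM, against 28.4, 6.48, 6.62 and 8.09 CPM at E18.5 (-3.34 ± 0.39, and -3.40 without E18.5 library 1, the highest). *Cck*, *Gast*, *Gal*, *Cartpt*, *Trh* and *Penk* were also called lower, all of them at means below 5 CPM in both groups. Glucagon (*Gcg*), the alpha cell hormone, was called higher (1.41 ± 0.38, adjusted p = 0.039). Its P10 libraries spread from 556 to 7835 CPM, with library 2 the highest, and overlapped the E18.5 range of 368 to 1778 CPM. Without P10 library 2 the value was 1.23 (adjusted p = 0.0366). The call was lost without E18.5 library 1 (1.29, adjusted p = 0.141), without E18.5 library 4 (1.43, adjusted p = 0.0685) and with the TRIzol libraries alone (1.301, adjusted p = 0.126). *Slc38a5*, an amino acid carrier known from alpha cells, was lower at P10 by 4.73 ± 0.28, with 40.99 ± 24.7 CPM at P10 and 892 ± 212 CPM at E18.5. Another alpha cell marker, *Dpp4*, the protease that cuts incretins, was higher by 1.75 ± 0.21. *Sst* (-0.78, adjusted p = 0.323) did not pass the test.

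**Figure D2:**
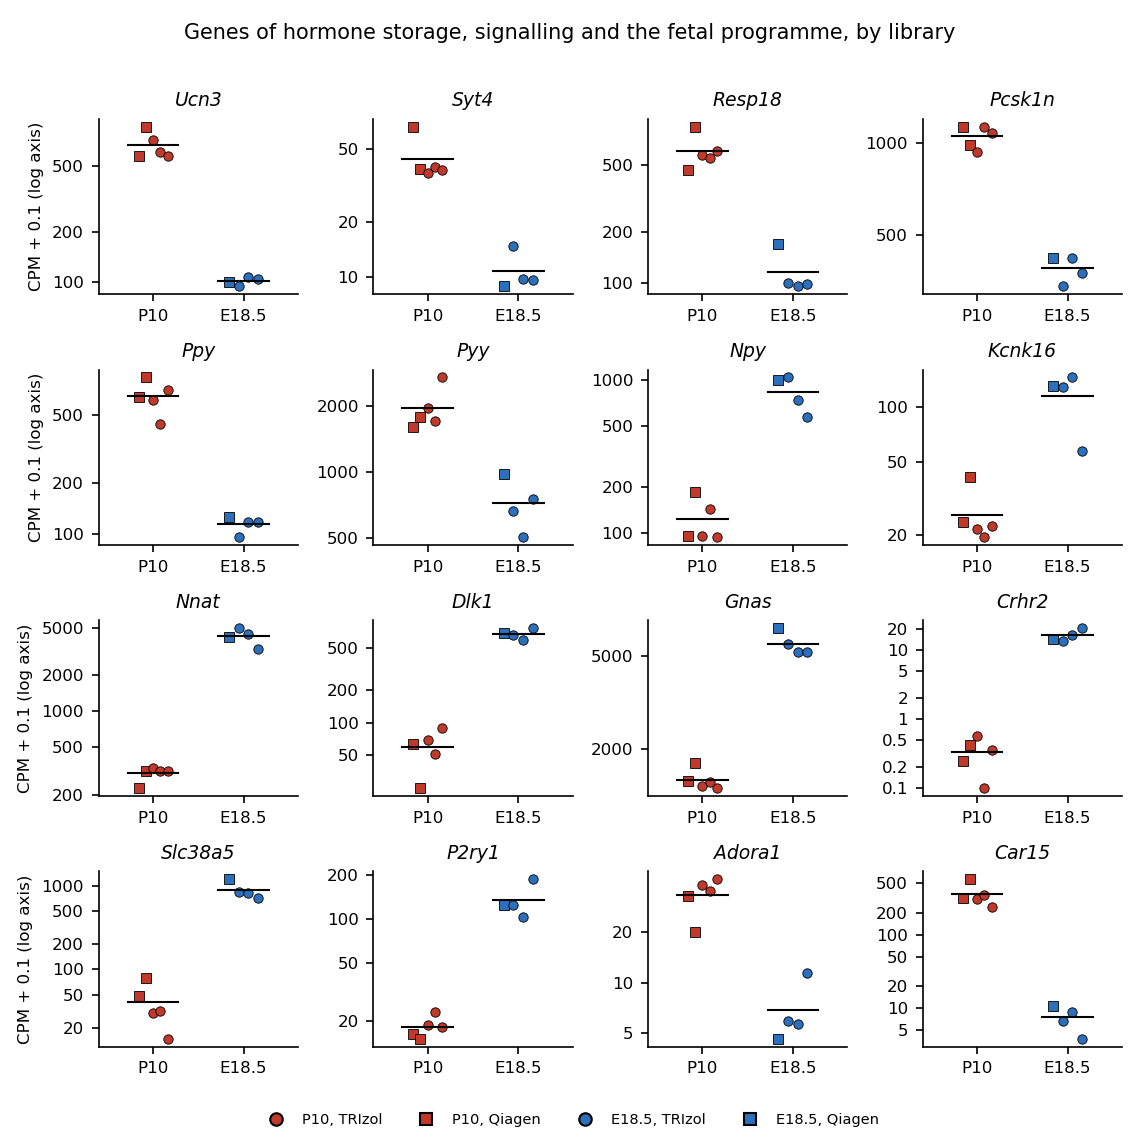
Scaled CPM plus 0.1 of 16 genes in each P10 and E18.5 library on log axes, with the group mean as a line and squares for Qiagen libraries. The groups do not overlap in any panel: Ucn3, Syt4, Resp18, Pcsk1n, Ppy, Pyy, Adora1 and Car15 are higher at P10, and Npy, Kcnk16, Nnat, Dlk1, Gnas, Crhr2, Slc38a5 and P2ry1 are lower.

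Among receptors for hormones and metabolites, 7 of 24 rose and 2 fell, with a median of 0.05, or 1 and 1 with all 63 libraries. *Adora1*, the adenosine A1 receptor, which lowers cyclic AMP, had 32.8, 19.99, 38.5, 35.2 and 41.6 CPM in P10 libraries, against 4.503, 5.78, 5.56 and 11.3 CPM in E18.5 libraries (2.41 ± 0.25, adjusted p = 4.24e-05). The ATP and ADP receptor *P2ry1* had 15.95, 14.86, 18.45, 22.7 and 17.98 CPM in P10 libraries, against 124, 124, 104 and 189 CPM in E18.5 libraries (-2.88 ± 0.17, adjusted p = 6.55e-07). The 2 purine receptors therefore separated the groups in opposite directions. *Galr1*, a galanin receptor, rose by 1.11 ± 0.15, and *Ghr*, the growth hormone receptor, by 0.62 ± 0.11. The long-chain fatty acid receptor *Ffar4* fell by 1.66 ± 0.21.

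*Glp1r*, the receptor of the incretin GLP-1, had 499, 93.9, 255, 255 and 252 CPM in P10 libraries, against 31.6, 71.4, 76.8 and 72.5 CPM in E18.5 libraries. P10 library 2 was well below its group and E18.5 library 1 below its own, but the groups did not overlap (2.19 ± 0.53, adjusted p = 0.0275). Without E18.5 library 1 the value was 1.79 (adjusted p = 0.0894), without E18.5 library 4 it was 2.26 (adjusted p = 0.0563), without P10 library 2 it was 2.30 (adjusted p = 0.00546), and with the TRIzol libraries alone 1.80 (adjusted p = 2.22e-06). *Gipr*, the receptor of the other incretin, rose by 1.22 ± 0.36 (adjusted p = 0.0373), with 71.5 CPM at P10 and 31.6 CPM at E18.5. *Prlr*, the prolactin receptor, had 253 to 617 CPM at P10, with a median of 388 CPM, and 187 to 264 CPM at E18.5 (0.60 ± 0.18, adjusted p = 0.0329), and the call was lost without E18.5 library 1 (0.44, adjusted p = 0.155) or E18.5 library 4 (0.54, adjusted p = 0.0645). Without that library 3 receptors rose and 2 fell.

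Ion channels were called in 8 of 24 cases (33.3%, against 22% of all genes), 5 higher and 3 lower. Without E18.5 library 1, and with the TRIzol libraries alone, 2 were higher and 4 lower, and without P10 library 5, 2 were higher and 3 lower. The sodium channel *Scn9a* rose by 1.04 ± 0.12, with 58.5 ± 7.11 CPM at P10 and 29.8 ± 5.47 CPM at E18.5, and the cation channel *Trpm2* by 1.52 ± 0.28. The 2-pore potassium channel *Kcnk16*, known as TALK-1, fell by 2.28 ± 0.26 to 23.6, 41.7, 21.4, 19.3 and 22.2 CPM in P10 libraries, against 131, 129, 146 and 57.9 CPM in E18.5 libraries. P10 library 2 was the highest of its group and E18.5 library 4 the lowest of its own, without overlap, and the value was -2.42 without P10 library 2 and -2.46 without E18.5 library 4. Its relative *Kcnk3* fell by 1.84 ± 0.46, and the T-type calcium channel *Cacna1h* was called lower at 0 to 1.595 CPM in P10 libraries and 2.61 to 7.00 CPM in E18.5 libraries. *Kcnj11* (-0.49) and *Abcc8* (0.12), the subunits of the ATP-sensitive potassium channel, did not pass the test.

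The factors and markers that define a mature β cell did not move as a block. Of 19 β cell transcription factors 3 rose and 3 fell (31.6% called, against 22% of all genes). The counts were 2 and 1 without P10 library 5 or E18.5 library 2. Of 16 maturity markers, 8 rose and 3 fell (68.8% called, median 0.60), or 3 and 0 with all 63 libraries. *Mafa*, a factor of mature β cells in rodents, had 144, 62.9, 154, 173 and 135 CPM in P10 libraries, against 61.8, 98.1, 123 and 96.3 CPM in E18.5 libraries. P10 library 2 was as low as the lowest E18.5 library, the groups overlapped and the difference missed the threshold (0.60 ± 0.20, adjusted p = 0.0541). *Mafa* was called with the TRIzol libraries alone (0.56, adjusted p = 0.0133) and without P10 library 2 (0.71, adjusted p = 0.00767).

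*St18*, a zinc finger factor, rose by 0.92 ± 0.15, and the nuclear receptor *Esrrg*, linked in mouse to the oxidative metabolism of mature β cells, rose by 1.43 ± 0.36 to 3.36 CPM, against 1.24 CPM at E18.5. *Pdx1*, the master factor of pancreas and β cell, stood at -0.01 ± 0.11 (260 ± 14.7 CPM at P10 and 263 ± 32.5 CPM at E18.5), an interval that leaves room for small changes either way. *Nkx6-1*, which holds β cell identity, fell by 0.47 ± 0.12 to 176 CPM, against 246 CPM at E18.5. *Slc2a2*, the glucose transporter GLUT2, had 412 to 445 CPM at P10, with a median of 416 CPM, and 477 to 593 CPM at E18.5 (-0.34 ± 0.09, adjusted p = 0.0172). It was not called without E18.5 library 1 (adjusted p = 0.0743). Of 17 genes that couple glucose to secretion 4 rose and 2 fell (35.3% called, against 22% of all genes). Without E18.5 library 1, 3 rose and none fell, 2 to 3 in all were called without P10 library 3, P10 library 5, E18.5 library 2 or E18.5 library 3, and 0 were called with all 63 libraries, 3 having an unadjusted p below 0.05. Among the rises were *Pfkfb2*, a regulator of glycolytic flux, at 0.59 ± 0.12 and *Pdha1*, of pyruvate dehydrogenase, at 0.40 ± 0.11. *Ero1lb*, an oxidase that helps proinsulin fold, rose by 0.75 ± 0.09 and *Wnt4*, a secreted signal of maturing islets, by 1.39 ± 0.22.

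Serotonin synthesis in β cells uses the hydroxylase *Tph1*, the decarboxylase *Ddc*, and *Gch1*, which makes a cofactor. *Tph1* fell by 1.48 ± 0.20 to 13.9 ± 5.56 CPM at P10, against 34.8 ± 7.00 CPM at E18.5, and the vesicle carrier *Slc18a1* fell by 0.93 ± 0.16. *Ddc* rose by 1.04 ± 0.12, with 439 ± 57.7 CPM at P10 and 213 ± 23.6 CPM at E18.5, and *Gch1* rose by 0.32 ± 0.08. Steps of the same pathway thus changed in opposite directions.

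Of 22 genes of endocrine progenitors and immature islets 12 fell and 1 rose at P10, with a median of -1.73. The counts were 10 and 1 without E18.5 library 1, and with all 63 libraries 7 and 0. *Sox9*, a factor of ductal progenitors, had 0.221 to 3.27 CPM at P10, with a median of 0.998 CPM, against 21.2, 13.2, 15.6 and 9.43 CPM in E18.5 libraries (-3.93 ± 0.44, adjusted p = 9.22e-05). *Fev*, a factor of endocrine precursors, had 2.59, 5.32, 4.73, 2.11 and 1.17 CPM in P10 libraries, against 24.98, 25.6, 25.6 and 23.0 CPM in E18.5 libraries (-3.04 ± 0.36). The 4 E18.5 values of *Fev* were nearly equal and all P10 values were far below them. *Mycl* fell by 2.10 ± 0.30 and *Gata6*, a factor of early pancreas, by 1.31 ± 0.21. *Pax4*, which directs cells to the β fate, was listed at 0 in 4 of 5 P10 libraries and at 0.4002 to 1.43 CPM in E18.5 libraries. *Neurog3*, which starts the endocrine programme, stood at 0.031 to 1.17 CPM at P10 and 1.42 to 4.36 CPM at E18.5 and did not pass the test (adjusted p = 0.0661). *Pyy* was the gene of the list that rose.

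Duct markers, which share *Sox9* with that list, held 0.0396 ± 0.0031% of counts at P10 and 0.0779 ± 0.00932% at E18.5 with no overlap (exact permutation p = 0.00794, adjusted p = 0.037). Keratin 7 (*Krt7*) carried most of this, with 327 ± 25.6 CPM at P10 and 527 ± 26.9 CPM at E18.5 (-0.67 ± 0.09). *Spp1* and the mucin *Muc1* were also lower, and the chloride channel *Cftr* was higher by 2.57 ± 0.37, with 6.44 to 23.0 CPM at P10 and 1.31 to 3.69 CPM at E18.5. The part of duct cells in these values was not tested.

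Imprinted genes, expressed from one parental copy and known for control of fetal growth, were lower in 11 of 21 cases and higher in 2, with a median of -0.98, or 8 lower and 0 higher with all 63 libraries. *Nnat*, neuronatin, which aids insulin processing in β cells, had 227, 313, 336, 312 and 317 CPM in P10 libraries, against 4197, 4925, 4400 and 3332 CPM in E18.5 libraries (-3.79 ± 0.13, adjusted p = 1.56e-08). *Dlk1*, a non-canonical Notch ligand, had 63.4, 24.2, 69.01, 51.1 and 88.9 CPM in P10 libraries, against 690.1, 669, 601 and 767 CPM in E18.5 libraries (-3.51 ± 0.30, adjusted p = 7.86e-05). *Gnas*, which encodes the stimulatory G protein subunit and other products of a complex locus, had 1458, 1737, 1385, 1436 and 1356 CPM in P10 libraries, against 6597, 5645, 5196 and 5222 CPM in E18.5 libraries (-1.98 ± 0.08, adjusted p = 2.26e-08). For these 3 genes the groups were far apart, although *Dlk1* spread widely at P10, lowest in library 2, and *Nnat* was lowest in P10 library 1.

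*Grb10*, an adaptor that dampens insulin and IGF signalling, fell by 2.11 ± 0.17 and *Cdkn1c*, the cell cycle inhibitor p57, by 3.49 ± 0.28. *Cdkn1c* was near 4 CPM in all P10 libraries (3.19 to 4.71 CPM, median 3.96 CPM) and at 103, 27.1, 22.1 and 35.3 CPM in E18.5 libraries, where library 1 was the highest. *Igf2*, a fetal growth factor, had 1.58 to 8.90 CPM at P10, with a median of 3.78 CPM, against 102, 64.3, 18.9 and 29.95 CPM at E18.5 (-3.94 ± 0.40). Stromal cells also express *Igf2* and *Dlk1*, and the stromal markers were themselves lower by a median of 1.49 in log2, 4 of 15 called. With all 63 libraries scaled together, *Cdkn1c* had means of 498 CPM at P1 and 226 CPM at P7, where mean stromal RNA was higher. Its means were 35.9 CPM at E18.5 and 3.03 CPM at P10. *Nnat* and *Gnas* had their highest means at E18.5. The part of stromal RNA in these falls was not tested. *Asb4* (1.35 ± 0.33) and *Impact* (0.50) were the imprinted genes that rose. *Igf2bp3*, a fetal RNA-binding protein repressed by let-7 microRNAs, fell by 2.39 ± 0.17, with 9.05 ± 1.84 CPM at P10 and 46.7 ± 4.90 CPM at E18.5.

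Most genes of mitosis fell. Of 24 genes of mitosis 21 were lower at P10 and none higher, with all 24 log2 fold changes negative and a median of -0.95. *Ube2c*, which feeds ubiquitin to the anaphase-promoting complex, had 27.3, 22.8, 23.8, 28.99 and 22.7 CPM in P10 libraries, against 99.8, 83.5, 73.9 and 72.4 CPM in E18.5 libraries (-1.73 ± 0.13, adjusted p = 4.01e-06). *Cdk1*, the kinase of mitotic entry, had 28.9, 29.9, 23.4, 33.5 and 25.9 CPM in P10 libraries, against 93.6, 72.96, 62.2 and 67.2 CPM in E18.5 libraries (-1.41 ± 0.14). Its cyclins *Ccnb1* (-1.39 ± 0.14) and *Ccnb2* (-1.22 ± 0.12) fell in step, and all of these had no overlap between groups. *Mki67*, an antigen of cycling cells, had 33.5, 51.0, 26.4, 31.4 and 30.8 CPM in P10 libraries, against 49, 85.5, 88.8 and 83.8 CPM in E18.5 libraries, where library 1 was the lowest and stood below P10 library 2 (-1.17 ± 0.23, and -1.54 without that library). With 1 library left out, 16 to 23 of 24 genes were called, and without E18.5 library 1 there were 23, all lower. With the spread shared over all 63 libraries edgeR called 0 of 24, although 9 had an unadjusted p below 0.05, all 24 were negative and the median was -1.03. DESeq2 on the 9 libraries called 23 and voom 24.

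The promoters of the listed mitosis genes, called or not, were read for motifs. The motif shares therefore describe the list and not the change between the groups. Many genes of late cell cycle are known to carry a cell cycle homology region (CHR, TTTGAA) and boxes for the factor NF-Y (CCAAT). Windows of 250 bases before to 50 after the start were read from RefSeq (GRCm38.p6), and 19 of the 24 genes had one. On either strand, TTTGAA stood in 13 of these 19 windows (68.4%), against 11.6% of 10727 genes tested that had a window. CCAAT stood in 16 of 19 (84.2%), against 38.6%, and both motifs in 13 of 19 (68.4%), against 4.92%. The windows of DNA replication genes held TTTGAA in 1 of 16 cases and CCAAT in 10 of 16 (62.5%). CCAAT also stood in 11 of 15 windows of circadian clock genes (73.3%), so a high CCAAT share was not particular to mitosis genes. Below are 3 windows that hold both motifs (that of *Ccnb1* holds CCAAT but no TTTGAA and is not shown), 5′ to 3′ on the gene's strand, with TTTGAA and CCAAT or their reverse complements in capitals. *Cdk1* lies on the minus strand of chromosome 10 (chr10:69352863-69353162), *Ube2c* on the plus strand of chromosome 2 (chr2:164769679-164769978) and *Ccnb2* on the minus strand of chromosome 9 (chr9:70421505-70421804).
Cdk1: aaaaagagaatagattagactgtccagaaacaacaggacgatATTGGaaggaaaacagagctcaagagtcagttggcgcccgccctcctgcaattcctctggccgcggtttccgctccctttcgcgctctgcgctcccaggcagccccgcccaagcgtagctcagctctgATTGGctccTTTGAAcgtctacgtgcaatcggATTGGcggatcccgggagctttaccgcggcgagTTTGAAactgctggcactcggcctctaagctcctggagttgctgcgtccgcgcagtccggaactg
Ube2c: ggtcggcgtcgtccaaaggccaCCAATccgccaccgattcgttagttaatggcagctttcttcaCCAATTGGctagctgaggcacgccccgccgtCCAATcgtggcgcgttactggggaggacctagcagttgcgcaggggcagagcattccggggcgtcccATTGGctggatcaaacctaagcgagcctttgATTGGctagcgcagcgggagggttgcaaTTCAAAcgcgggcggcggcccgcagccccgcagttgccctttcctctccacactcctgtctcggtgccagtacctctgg
Ccnb2: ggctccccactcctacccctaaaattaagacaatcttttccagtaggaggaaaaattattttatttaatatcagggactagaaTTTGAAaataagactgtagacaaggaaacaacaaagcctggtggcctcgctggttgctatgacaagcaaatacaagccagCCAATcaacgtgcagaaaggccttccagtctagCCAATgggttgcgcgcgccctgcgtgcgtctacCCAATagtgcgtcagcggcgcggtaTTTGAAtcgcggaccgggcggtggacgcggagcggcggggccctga
In *Ube2c* one CCAAT on the plus strand overlaps one on the minus strand. A match describes the letters in the window and is not a test of binding.

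**Figure D3:**
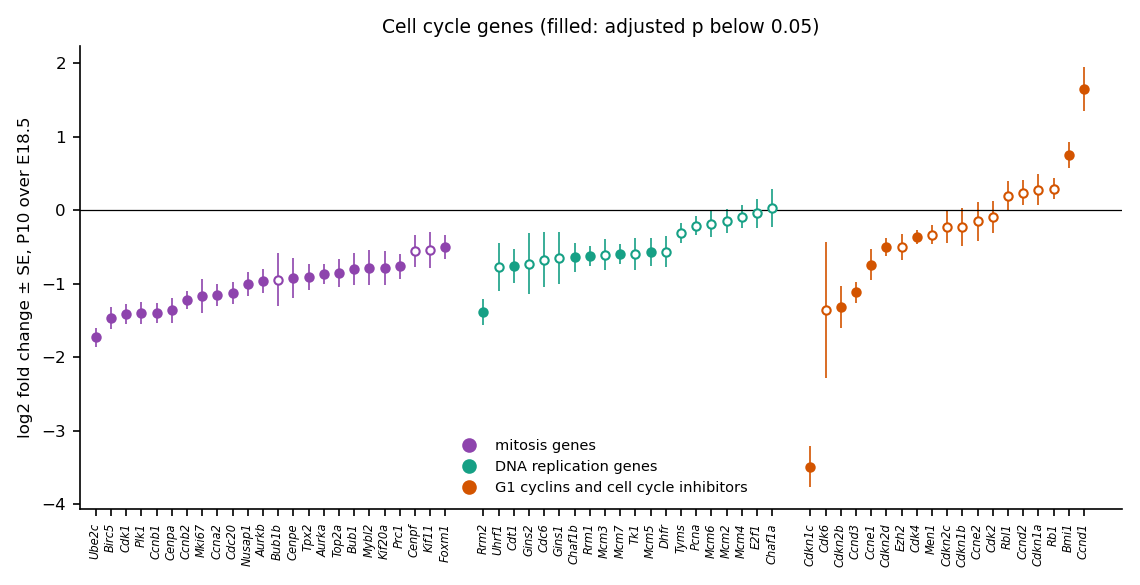
The log2 fold change (P10 over E18.5, bars ± SE) of each tested gene of mitosis, DNA replication, and G1 cyclins and cell cycle inhibitors, with filled points for an adjusted p below 0.05. All 24 mitosis genes lie below 0, whereas Ccnd1 lies highest of the third list at 1.65 and Cdkn1c lowest at -3.49.

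Of 20 DNA replication genes 6 were lower and none higher (30% called, against 22% of all genes), with a median of -0.60. The count was 3 without E18.5 library 1, E18.5 library 2 or P10 library 5, and 1 with all 63 libraries. *Rrm2*, the regulated subunit of ribonucleotide reductase, fell by 1.39 ± 0.18 to 27.8 ± 7.09 CPM at P10, against 73.2 ± 6.46 CPM at E18.5, and *Rrm1* and *Mcm7* fell by about 0.6. *Pcna* (-0.21), a clamp of the replication fork, did not pass the test. Among G1 regulators the D cyclins, which start the cycle, split. *Ccnd1* rose by 1.65 ± 0.30 to 26.6, 49.02, 96.1, 39.8 and 56.0 CPM in P10 libraries, against 14.4, 17.01, 13.5 and 25.9 CPM in E18.5 libraries, with no overlap but with P10 library 1 close to E18.5 library 4. *Ccnd3* fell by 1.12 ± 0.14 and *Ccnd2*, the main D cyclin of rodent β cells, stood at 0.24 and did not pass the test. The inhibitor *Cdkn2b* fell by 1.32 ± 0.28 and *Cdkn1b* (-0.23) did not pass the test.

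Genes of the respiratory chain and of cytosolic ribosomes changed by small steps in many members. Of 47 subunits of the respiratory chain and ATP synthase 25 fell and 1 rose, with a median of -0.40. *Atp5b*, the catalytic subunit of ATP synthase, fell by 0.61 ± 0.08 to 882 ± 96.1 CPM at P10, against 1311 ± 141 CPM at E18.5. Without E18.5 library 1 the counts were 8 lower and 1 higher with a median of -0.28, without E18.5 library 2 14 lower, with the TRIzol libraries alone 13 lower and 1 higher, and with all 63 libraries 5 lower and 0 higher. The single rise was *Sdha*, of succinate dehydrogenase (0.36 ± 0.10). Of 76 cytosolic ribosomal protein genes 71 were lower at P10, none higher, with log2 fold changes of -0.93 to -0.21 and a median of -0.62. For 20 of the 76 (26.3%) the P10 libraries were all below the E18.5 libraries, against 9.45% of all genes. All 76 were negative in all 20 other fits, and the number called was 42 without E18.5 library 1, 57 with the TRIzol libraries alone and 16 with all 63 libraries. *Rps6* had 235 ± 36.9 CPM at P10 and 323 ± 66.6 CPM at E18.5, with the highest value in E18.5 library 1. These genes have many processed pseudogenes, so reads may be shared among copies.

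In glycolysis 3 of 16 genes rose and 5 fell, and without P10 library 3 the counts were 1 and 4. The enolases moved in opposite directions, as *Eno1* fell by 0.78 ± 0.09, with 202 CPM at P10 and 335 CPM at E18.5, and *Eno2*, the neuronal and endocrine form, rose by 1.95 ± 0.29, with 15.9 CPM at P10 and 4.13 CPM at E18.5. Fatty acid oxidation was called in 4 of 25 genes (16%), below the 22% of all genes, or in 2 without P10 library 3 or P10 library 4. Its entry step *Cpt1a* rose by 1.09 ± 0.19 and the carrier *Slc25a20* by 0.70 ± 0.15. In fatty acid synthesis the elongases split. *Elovl5*, which lengthens polyunsaturated fatty acids, had 164 ± 14.03 CPM at P10 and 54.6 ± 3.34 CPM at E18.5 (1.58 ± 0.11, adjusted p = 1.75e-06), and *Elovl6*, which lengthens saturated ones, had 12.4 ± 1.94 CPM at P10 and 33.0 ± 6.02 CPM at E18.5 (-1.44 ± 0.17). Cholesterol synthesis was called in 3 of 23 genes (13%), a share below that of all genes, and in 1 without E18.5 library 1.

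Folding genes of the endoplasmic reticulum were mostly lower where they were called. Of 25 such genes 10 were lower and 1, *Ero1lb*, was higher, or 2 and 0 with all 63 libraries. The chaperone *Hsp90b1* had 1458, 1537, 1351, 1376 and 1247 CPM in P10 libraries, against 2190, 2404, 2430 and 2547 CPM in E18.5 libraries (-0.79 ± 0.09). *Pdia4* (-0.97 ± 0.12) and *Pdia6* (-0.86 ± 0.11), which form disulfide bonds, were lower in all P10 libraries, and *Hspa5*, BiP, fell by 0.37 ± 0.09. Within the integrated stress response 3 of 24 genes rose and 4 fell (29.2% called, against 22% of all genes). None rose and 3 fell without E18.5 library 1, and none rose and 4 fell without P10 library 3. The counts were 1 and 3 without P10 library 4, E18.5 library 3 or E18.5 library 4. Among the falls were the serine synthesis enzyme *Phgdh*, with 19.3 ± 11.6 CPM at P10 and 109.8 ± 31.7 CPM at E18.5 (-2.86 ± 0.24), and *Psat1* of the same route (-1.04 ± 0.25). *Atf4* (0.17) and *Ddit3* (0.06), the factors of that response, did not pass the test.

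Among 20 genes that β cells normally silence, called disallowed genes, 10 fell and 1 rose, with a median of -1.74. With no extraction term 5 fell and 1 rose, and with all 63 libraries 2 fell and 1 rose. *Ldha*, lactate dehydrogenase A, had 10.9, 9.41, 2.57, 3.13 and 1.99 CPM in P10 libraries, against 71.9, 20.2, 8.11 and 34.6 CPM in E18.5 libraries. The groups overlapped, and within each extraction method the P10 libraries were lower (-2.96 ± 0.34, adjusted p = 0.000156). *Mgst1*, a glutathione transferase, fell by 4.499 ± 0.42, with 1.97 ± 1.59 CPM at P10 and 33.0 ± 6.03 CPM at E18.5. The lactate carrier *Slc16a1* had 0.032 to 1.73 CPM at P10 and 0.368 to 4.16 CPM at E18.5 and did not pass the test (adjusted p = 0.263). Other cell types express these genes, and the part of their RNA was not tested.

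Circadian clock genes had the highest median of the pathway lists, 0.84, with 8 of 18 higher and 1 lower. The clock output factor *Dbp* had 63.4, 46.98, 49.1, 32.0 and 72.4 CPM in P10 libraries, against 17.5, 19.9, 19.9 and 16.5 CPM in E18.5 libraries (1.51 ± 0.22, adjusted p = 0.000481). Its relatives *Hlf* (3.06 ± 0.47) and *Tef* (0.95 ± 0.21) rose too, and *Nfil3*, the repressor that competes with them for D-boxes, fell by 1.15 ± 0.25. *Per3*, a period gene, had 28.7, 15.3, 28.03, 19.9 and 33.7 CPM in P10 libraries, against 3.27, 6.38, 6.96 and 14.98 CPM in E18.5 libraries (1.86 ± 0.36). The activators *Arntl* (0.29) and *Clock* (0.33) did not pass the test. The hour of collection is not given in the labels. With the spread of all 63 libraries 3 genes were higher and 1 lower, and *Dbp* was not called (adjusted p = 0.161).

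A D-box (TTATGTAA), the site that *Dbp*, *Hlf* and *Tef* proteins bind, stood on either strand in 1 of 15 clock windows, against 0.513% of all genes with a window. It was that of *Per3*, which holds it at 2 places on the minus strand of chromosome 4 (chr4:151044616-151044915, GRCm38.p6), shown in capitals.
Per3: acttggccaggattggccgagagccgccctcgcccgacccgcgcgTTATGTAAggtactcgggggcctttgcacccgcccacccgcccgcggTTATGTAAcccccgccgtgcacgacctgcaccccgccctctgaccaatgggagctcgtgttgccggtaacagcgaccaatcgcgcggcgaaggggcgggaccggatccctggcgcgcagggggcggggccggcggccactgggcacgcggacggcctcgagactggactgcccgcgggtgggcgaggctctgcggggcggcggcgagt
An E-box (CACGTG), which the CLOCK protein and its partner bind, stood in 5 of 15 clock windows (33.3%), against 9.97%. The windows of *Dbp*, *Hlf* and *Per3* held no E-box.

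Among 11 genes that respond to thyroid hormone or glucocorticoids 5 rose and 1 fell. *Dio1*, a deiodinase that makes active thyroid hormone, rose by 2.08 ± 0.32, with 20.2 ± 7.72 CPM at P10 and 4.78 ± 1.74 CPM at E18.5. *Tsc22d3* (0.84 ± 0.21), a glucocorticoid target, rose, whereas *Fkbp5*, another, fell by 0.81 ± 0.17 to 38.7 CPM, against 70.1 CPM at E18.5. In antigen presentation 3 of 10 genes rose and none fell (30% called, against 22% of all genes). The count was 1 without P10 library 5 or E18.5 library 4 and 5 without P10 library 1. The transporter subunit *Tap2* rose by 0.96 ± 0.13.

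Immediate early genes, which stimulation or tissue handling induces within minutes, were called lower in 8 of 21 cases and higher in none, with a median of -1.66. *Fos* had 97.1, 23.7, 51.6, 65.9 and 27.1 CPM in P10 libraries, against 839, 200.4, 208 and 912 CPM in E18.5 libraries (-3.38 ± 0.70, adjusted p = 0.0187). E18.5 libraries 1 and 4, which also held the intestinal and erythroid RNA, were the highest, and the other 2 were still above all P10 libraries. Libraries 1 and 4 also held the most stromal marker RNA of E18.5, 0.0382 and 0.0335% of counts, against 0.0146 and 0.0103% in libraries 2 and 3. *Fosb* (-3.25 ± 0.60), *Klf4* (-2.63 ± 0.54) and *Klf6* (-1.53 ± 0.30) were also lower. With all 63 libraries scaled together, *Fosb* had means of 48.96 CPM at P1 and 53.75 CPM at P7, where mean stromal RNA was higher. Its means were 8.52 CPM at E18.5 and 0.959 CPM at P10. The part of stromal RNA in these falls was not tested. Without E18.5 library 1, 4 genes of the list were called lower and *Fos* was not (-3.19, adjusted p = 0.0846), and without E18.5 library 2 there were 13. Without E18.5 library 4 *Fos* stood at -2.74 (adjusted p = 0.0308), *Fosb* at -2.56, *Klf4* at -2.22 and *Klf6* at -1.09, all still called.

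The largest changes by the naming rule were genes of many roles. *Car15*, a carbonic anhydrase, had 315, 569.8, 301, 345 and 239.6 CPM in P10 libraries, against 10.7, 6.63, 8.87 and 3.75 CPM in E18.5 libraries (5.47 ± 0.30, adjusted p = 1.75e-06), the largest rise of the named genes. *Myo3a*, an unconventional myosin, rose by 3.99 ± 0.23, and *Nebl*, *Fbxw18*, *Ccl28*, *Col19a1*, *Dlgap1*, *Gbp8*, *St8sia1*, *Tnfrsf11b*, *Ceacam1* and *Defb1* rose by 2.96 to 3.94. *Tnfrsf11b* encodes osteoprotegerin, a decoy receptor of RANKL, and had 24.4 ± 6.25 CPM at P10 and 2.72 ± 0.75 CPM at E18.5. Outside the rule, *Syt10*, a synaptotagmin, had 9.09 ± 3.88 CPM at P10 and 0.204 ± 0.118 CPM at E18.5 (5.41 ± 0.49), and was named after its values were seen.

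Among the 12 largest falls were genes that the intestine also makes, whose place depends on E18.5 library 1. Without that library *Crhr2* (-6.10), *Dab1* (-5.71) and *Olfml2b* (-5.62) came before *Cdhr5* and *Gip*. *Cdhr5*, a protocadherin of the brush border, had 0.0285 to 0.558 CPM at P10, with a median of 0.032 CPM, against 76.6, 2.40, 1.49 and 2.45 CPM in E18.5 libraries. Its log2 fold change was -7.32 ± 0.64 with E18.5 library 1 and -5.59 (adjusted p = 0.00665) without it. *Gip*, the incretin hormone of intestinal K cells, had 0.0532 to 1.07 CPM at P10, with a median of 0.279 CPM, against 135, 14.5, 16.03 and 16.4 CPM in E18.5 libraries. Without library 1 its fall was 4.67 in log2 (adjusted p = 0.000136), against -6.28 ± 1.02 with it. *Slc3a1*, an amino acid carrier subunit, stood at -4.09 ± 0.62 with library 1 and at -2.80 without it. E18.5 libraries 2, 3 and 4 were thus above all P10 libraries for each of these genes. *Gp9*, a platelet glycoprotein, had 2.33, 2.05, 0.856, 1.27 and 1.58 CPM in P10 libraries, against 73.7, 54.9, 51.0 and 39.4 CPM in E18.5 libraries (-5.22 ± 0.20, adjusted p = 2.05e-08). It carried the mast cell and platelet list, which held 0.000711% of counts at P10 and 0.00724% at E18.5 (exact permutation p = 0.00794, adjusted p = 0.037). The platelet gene *Pf4* (-0.90) and the integrin *Itga2b* (-0.64) did not pass the test, and *Ppbp* was too low to be tested. *Ifitm1* (-5.04 ± 0.35), *Dab1* (-5.13 ± 0.55), *Olfml2b*, *Meltf* and *Crispld2* fell by 4.39 or more. With all 63 libraries scaled together, *Ifitm1* had means of 33.89 CPM at P1 and 21.41 CPM at P7, against 8.885 CPM at E18.5. *Olfml2b* had 38.39 and 50.42 CPM, against 14.61 CPM. Mean stromal RNA was higher at P1 and P7, and its part in the falls of *Ifitm1* and *Olfml2b* was not tested. *Dab1*, *Meltf* and *Crispld2* had their highest means at E18.5.

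**Figure D4:**
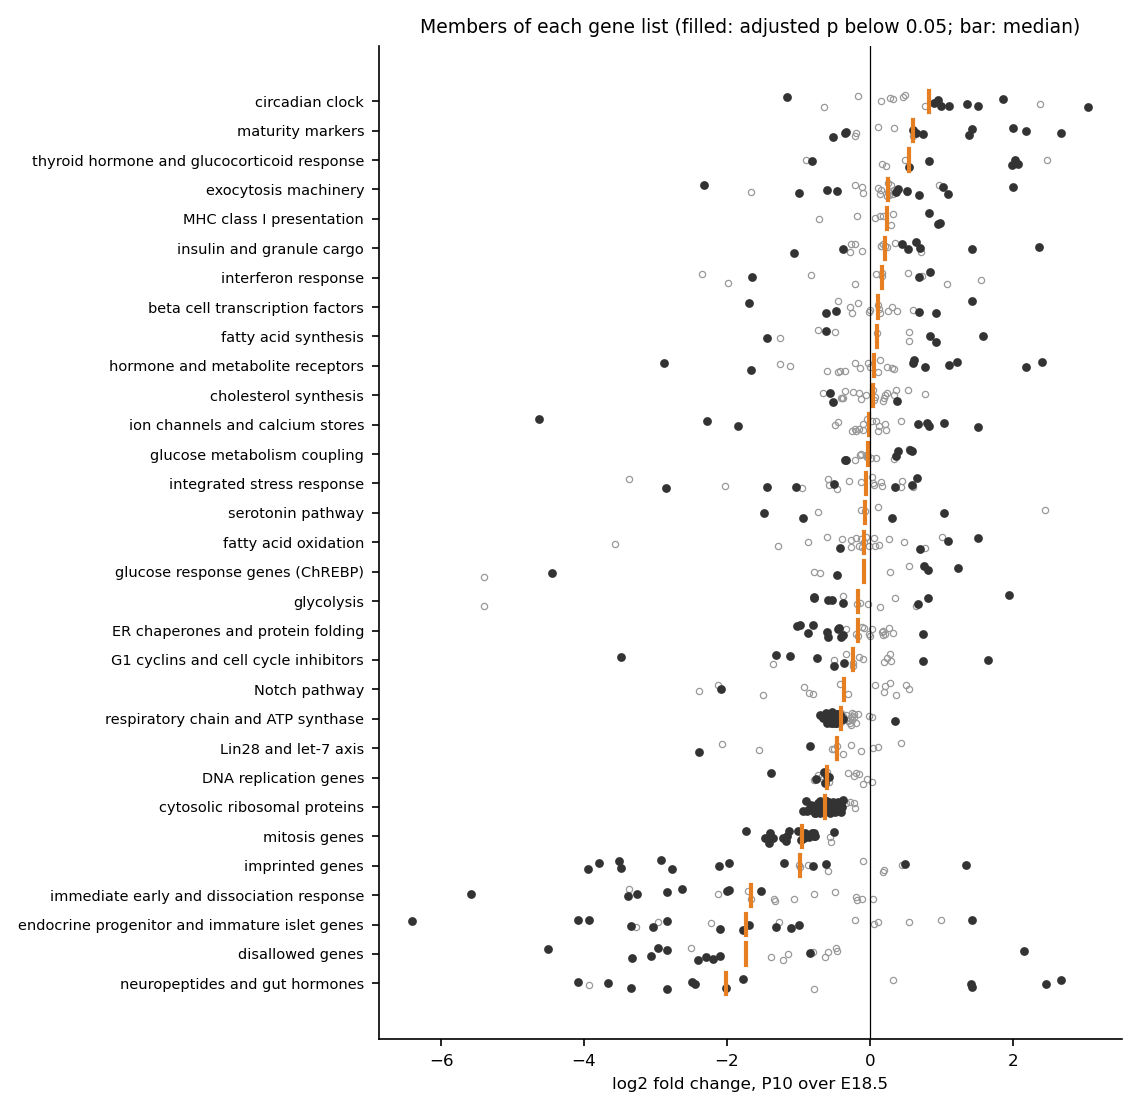
The log2 fold change (P10 over E18.5) of every tested member of 30 gene lists and of the cytosolic ribosomal proteins, with filled points for an adjusted p below 0.05 and a bar at the median. Clock genes have the highest median, 0.84, and neuropeptides and gut hormones the lowest, -2.02, with members at both ends.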

How the data were processed

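Per the submitters' processing notes, reads were handled with bcl2fastq 2.20.0.422, Bowtie 1.2.2 and RSEM 1.3.0 on mm10. The deposited expected counts of 20306 genes, which the authors made per library, were rounded to whole numbers (54.4% of values in the 9 libraries were not whole). The authors' deposited normalized signal (a rescaling of those counts by one factor for each library) was used only for those factors, as an alternative. Libraries were made with SMART-Seq v4 and Nextera XT per the labels' protocols, which mark no strand, so overlapping genes cannot be told apart.

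Genes were kept with filterByExpr and scaled with TMM in edgeR 4.0.16 (R 4.3.3). The 9 libraries were fitted with group and RNA extraction (glmQLFit, robust, two-sided glmQLFTest, Benjamini-Hochberg at 0.05), and SEs come from the F statistic. The steps were tested on simulated counts. Marker shares were compared by exact permutation over 126 regroupings. Totals of 33055870 counts or more limit counting error only.

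Members and gene lists were chosen with earlier results of these data known. Named genes are the 12 with the greatest increase and the 12 with the greatest decrease (called, groups not overlapping, a mean of 10 CPM or more in the higher group, Gm, Rik, mt- and sex-linked genes left out), up to 4 called members of each list, and a set of anchor genes such as Ins1. Other genes named were chosen after their values were seen. Alternatives were RLE and the authors' factors, other filters, DESeq2 1.42.0, voom (limma 3.58.1), all 63 libraries, no extraction term, a term for an S number above 60 in the description labels in place of extraction, 1 extraction method alone, and each library left out. Leaving libraries out for the ribosomal proteins and for *Fos* was added after seeing the data. Some genes are not reported here.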

Additional observations from a re-analysis of the deposited data

Results flagged for a closer look

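In groups of 4 or 5 libraries, a highest or lowest library that stood apart by Dixon's test was noted for 25 of 358 group values examined, and chance alone gives about 1 in 20. E18.5 library 1 accounted for 10 of them. It was highest for the alpha cell marker share (0.2802% of counts), *Cdhr5* (76.6 CPM), *Gip* (135 CPM), *Slc3a1* (35.6 CPM), *Ghrl* (28.4 CPM), *Resp18* (171 CPM) and *Eno1* (414 CPM), and lowest for *Acot2* (0.517 CPM), *Glp1r* (31.6 CPM) and *Mki67* (49 CPM). Its part in *Cdhr5*, *Gip*, *Slc3a1*, *Ghrl*, *Resp18*, *Glp1r* and *Mki67* is given with each gene above. *Acot2* was called with it (1.51, adjusted p = 0.0398, edgeR) and not without it (1.10, adjusted p = 0.144), and *Eno1* was called both ways.

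P10 library 1 was highest for *Syt4* (66.4 CPM), *Gpd1* (45.5 CPM), *Erbb3* (4.84 CPM) and *Cd3g* (0.0576 CPM, with 0 in the other 4), and lowest for *Nnat* (227 CPM) and *Iapp* (21200 CPM). P10 library 2 was highest for *Cdhr5* (0.558 CPM) and *Kcnk16* (41.7 CPM) and lowest for *Mafa* (62.9 CPM). P10 library 4 was lowest for *St18* (66.9 CPM), and P10 library 5 for *Cftr* (6.44 CPM). E18.5 library 4 was lowest for *Kcnk16* (57.9 CPM), *Eif4ebp1* (25.1 CPM) and *Prlr* (187 CPM), and E18.5 library 2 for *Shmt2* (27.8 CPM).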

How the results depend on the processing

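Of 155 named genes that were called, 154 kept their sign in all 20 other fits, *Psmb8* being the exception (-0.018 with the Qiagen libraries alone), and 78 were called in all of them but the Qiagen fit, whose 2 P10 libraries face 1 E18.5 library. The count of 3008 genes called moved to 1050 with all 63 libraries, 1979 with a term for the S number of the labels in place of extraction, 811 with the Qiagen libraries alone and 1972 to 2992 with 1 library left out, lowest without E18.5 library 2. With the authors' factors 37.4% of calls were higher at P10, against 44.3% otherwise, and the median of all genes was -0.052. The count of at least 2-fold was 741 with a minimum of 5 CPM in 3 libraries, 663 with all 63 libraries and 931 to 1135 with 1 left out. Differences in share of counts (P10 minus E18.5, percentage points) lost their call with the TRIzol libraries alone, at -0.0385 for duct, -0.00653 for mast cell and platelet and 12.98 for β cell identity markers, and with 1 library left out, at -0.0413 to -0.0341, -0.00668 to -0.00621 and 8.77 to 12.25. None of these changed sign. With 3 against 3 TRIzol libraries the smallest possible exact p is 0.1, so no share could be called there. With 1 library left out it is 0.0286 or 0.0179 before adjustment, and these shares stood at it. Values that were not called and changed sign were *Hba-a2* (-3.96 to 0.24 with 1 library left out, highest without E18.5 library 4), *Pdx1* (0.040 with the Qiagen libraries, -0.075 to 0.040 with 1 left out), the alpha cell share (-0.0303 with the TRIzol libraries), the delta, PP and epsilon share (-0.0321 to 0.0128 with 1 left out, 0.023 of counts outside the insulin genes) and the myeloid share (-0.00303 with the TRIzol libraries, -0.00179 to 0.00521 with 1 left out). With fewer libraries the smallest possible exact p rises. No other cause was tested. No paired analysis was possible because the labels give the groups no shared replicate numbers.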
